A study of Mus musculus with 48 samples.

Results

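The genes examined in mouse brain mark border-associated macrophages: Mrc1, Stab1, Lyve1, Cd163, Pf4, F13a1, Cbr2 and Ms4a7. They were taken by gene symbol from the deposited expression table, in which they make up 8 of 54532 gene rows, and all 8 were found. RNA was sequenced from male wild-type C57Bl6 mice that received 1 of 4 treatments for 2 weeks. Angiotensin II (Ang II), a peptide hormone that constricts vessels and raises blood pressure, was infused by osmotic minipump at 0.7 mg per kg per day, and control mice were infused with saline as the vehicle. Hydralazine, a direct vasodilator that lowers blood pressure, was given in the drinking water at 50 mg per kg. The groups were thus Ang II, Ang II plus hydralazine, vehicle plus hydralazine, and vehicle, each with 6 libraries from the hippocampus and 6 from the brain hemisphere, 48 in all. The labels give neither the age of the mice nor whether each library is a separate mouse, so every p-value reflects only how libraries of a group vary, which may be technical. The comparisons address how Ang II changes gene levels in the brain and whether hydralazine alters such changes.

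Border-associated macrophages are the resident macrophages of the meninges, of the spaces around penetrating vessels and of the choroid plexus. They are relatives of the microglia of the brain tissue itself but lie next to vessels, fibroblasts and cerebrospinal fluid, where they take up proteins and particles. Scavenger and uptake receptors and a set of secreted proteins distinguish them from microglia. Mrc1 encodes the mannose receptor CD206, Stab1 encodes the scavenger receptor stabilin-1, Lyve1 encodes a hyaluronan receptor, and Cd163 encodes the receptor for haemoglobin-haptoglobin complexes. Pf4 encodes the chemokine platelet factor 4 and F13a1 the A chain of coagulation factor XIII. Cbr2 encodes a carbonyl reductase, and Ms4a7 a tetraspanning membrane protein. Some of the genes are not exclusive to these cells: megakaryocytes and platelets make Pf4 and F13a1, and lymphatic and sinusoidal endothelium make Lyve1 and Stab1. In bulk tissue, fewer cells of a type and less RNA per cell cannot be told apart.

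The genes lie on 8 chromosomes (GRCm38), and the coordinates in the deposited table equalled those of GENCODE M21 for all 8. Mrc1 (ENSMUSG00000026712) lies at chr2:14229392-14332057 on the plus strand and Stab1 (ENSMUSG00000042286) at chr14:31139013-31168641 on the minus strand. Lyve1 (ENSMUSG00000030787) lies at chr7:110850607-110863239 on the minus strand and Cd163 (ENSMUSG00000008845) at chr6:124304656-124330527 on the plus strand. Pf4 (ENSMUSG00000029373) lies at chr5:90772435-90773383 on the plus strand and F13a1 (ENSMUSG00000039109) at chr13:36867178-37050244 on the minus strand. Cbr2 (ENSMUSG00000025150) lies at chr11:120729489-120732114 and Ms4a7 (ENSMUSG00000024672) at chr19:11321039-11336146, both on the minus strand. Exons of Stab1 overlap those of Nt5dc2 on the opposite strand by 112 bases, and exons of F13a1 overlap those of Gm30489 by 74 bases. No source here says whether counting used strand, so reads in these stretches cannot be told apart.

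RefSeq promoter windows (GRCm38.p6, 250 bases before to 50 bases after a start site) matched 7 of the 8 genes, with 9 windows, and none matched Lyve1. Macrophage genes are often driven by the ETS factor PU.1 and by MAF factors, so 3 short stretches of letters were searched on both strands. The ETS-type letters GGAAGT were in 4 of the 9 windows (23.8% of all 32851 promoters). The related letters GAGGAA were in 7 of the 9 windows (28.3% of all promoters). The MAF-type letters TGCTGA were in 2 of the 9 windows (19.5% of all promoters). The windows of 3 members are printed with these letters or their reverse complement in capitals: Pf4 and Cbr2, the pair that varied together most closely in the hippocampus, and Stab1, the member with the highest mean level in the hemisphere. Pf4 is at chr5:90772185-90772484 (plus strand), Cbr2 at chr11:120731972-120732271 (minus strand) and Stab1 at chr14:31168592-31168891 (minus strand).
Pf4: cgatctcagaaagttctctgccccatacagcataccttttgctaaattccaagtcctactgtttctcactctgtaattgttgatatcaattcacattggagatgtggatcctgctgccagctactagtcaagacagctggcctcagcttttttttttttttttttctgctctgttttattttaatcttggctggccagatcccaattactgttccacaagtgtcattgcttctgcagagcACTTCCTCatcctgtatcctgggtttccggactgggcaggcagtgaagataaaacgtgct
Cbr2: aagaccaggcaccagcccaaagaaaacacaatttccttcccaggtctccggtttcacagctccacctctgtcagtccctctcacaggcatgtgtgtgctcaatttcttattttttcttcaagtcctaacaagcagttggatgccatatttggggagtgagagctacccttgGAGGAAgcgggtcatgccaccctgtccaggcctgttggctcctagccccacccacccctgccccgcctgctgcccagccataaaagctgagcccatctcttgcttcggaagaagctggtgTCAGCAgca
Stab1: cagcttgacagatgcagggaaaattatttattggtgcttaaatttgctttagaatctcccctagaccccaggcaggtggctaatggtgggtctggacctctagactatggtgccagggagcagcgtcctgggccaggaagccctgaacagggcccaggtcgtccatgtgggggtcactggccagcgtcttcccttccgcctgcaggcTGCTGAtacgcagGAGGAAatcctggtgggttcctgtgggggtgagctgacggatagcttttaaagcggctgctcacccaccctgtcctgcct
In the Pf4 window both ETS-type stretches overlapped on the opposite strand, starting at -10 and -8 from the start site. The Cbr2 window held the letters GAGGAA at -79 on the same strand and the MAF-type letters at 42 on the opposite strand. The Stab1 window held the MAF-type letters at -43 and the letters GAGGAA at -30, both on the same strand. The 3 windows thus all held GAGGAA, each at another distance from the start site. A match of letters does not show binding, and its absence says nothing about a factor.

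Levels are FPKM, fragments per kilobase of gene and per M reads, which can be set side by side between genes. In the hemisphere, reads in genes ranged from 15.77 to 23.5 M per library (M stands for 1000000). In the hippocampus, 18 libraries held 15.36 to 21 M reads and 18914 to 23044 genes above 0. The other 6 hippocampal libraries (Ang II 3, Ang II plus hydralazine 5, vehicle plus hydralazine 3 and 4, vehicle 3 and 4) listed only 7805 to 15684 genes and stand apart. Several members were listed at 0 there, while single members were very high, so hippocampal results are given with and without them. Hemisphere Ang II replicate 6 also stands apart, with summed MHC class II genes of 55.0 FPKM against at most 25.6 FPKM in the other 5 Ang II libraries. It differs in more than these genes: its mitochondrial share of reads was 2.77%, against 5.84 to 6.66% in the other 5. Its sums of neuronal genes (1157 FPKM) and of smooth muscle and pericyte genes (109.7 FPKM) were the highest of the hemisphere. Hippocampal Ang II replicate 6 had a mitochondrial share of 5.74%, against 8.91 to 10.01% in the other 5 Ang II libraries. Its microglial sum (213.9 FPKM) and its smooth muscle and pericyte sum (46.35 FPKM) were the lowest of its group. Fits between regions without Ang II replicate 6 left out this library and that of the hemisphere. The labels of the regions were checked on markers: 6 of 6 hippocampal marker genes were called higher in the hippocampus than in the hemisphere of vehicle mice, and 6 of 6 striatal marker genes lower, both without the 6 libraries with few genes.

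The 8 genes were expressed at low levels, and only Stab1, Pf4 and Cbr2 came near or above 1 FPKM on average. Over the 18 hippocampal and the 24 hemisphere libraries, Stab1 averaged 1.09 ± 0.216 FPKM in the hippocampus and 1.92 ± 0.357 FPKM in the hemisphere (SD, n = 18 and 24). Pf4 averaged 1.40 ± 0.864 FPKM in the hippocampus and 1.42 ± 0.467 FPKM in the hemisphere, and Cbr2 averaged 0.746 ± 0.419 and 0.949 ± 0.343 FPKM in the hippocampus and the hemisphere. The remaining receptors were lower. Mrc1 averaged 0.273 FPKM in the hippocampus and 0.434 FPKM in the hemisphere. Cd163 averaged 0.135 FPKM in the hippocampus and 0.375 FPKM in the hemisphere, and Lyve1 0.123 FPKM in the hippocampus and 0.376 FPKM in the hemisphere. F13a1 averaged 0.108 FPKM in the hippocampus and 0.300 FPKM in the hemisphere, and Ms4a7 0.0782 FPKM in the hippocampus and 0.0887 FPKM in the hemisphere.

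F13a1 and Ms4a7 stayed under 0.5 FPKM in all 48 libraries, with maxima of 0.498 and 0.242 FPKM. Cd163 stayed under it in 44 libraries and reached it in 4, all from the hemisphere. Lyve1 stayed under 0.5 FPKM in 40 libraries and Mrc1 in 37. Lyve1 reached it in 5 hemisphere libraries and in 3 of the hippocampal libraries with few genes, and Mrc1 in 8 hemisphere and 3 hippocampal libraries. Cbr2 was under 0.5 FPKM in 14 libraries, Pf4 in 6 and Stab1 in 1. The number of reads behind these values was small for the short or low genes: in the hemisphere Pf4 had 8 to 34 reads per library, Cbr2 7 to 49, Mrc1 20 to 82 and Ms4a7 2 to 23, while Stab1 had 297 to 651.

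**Figure D1:**
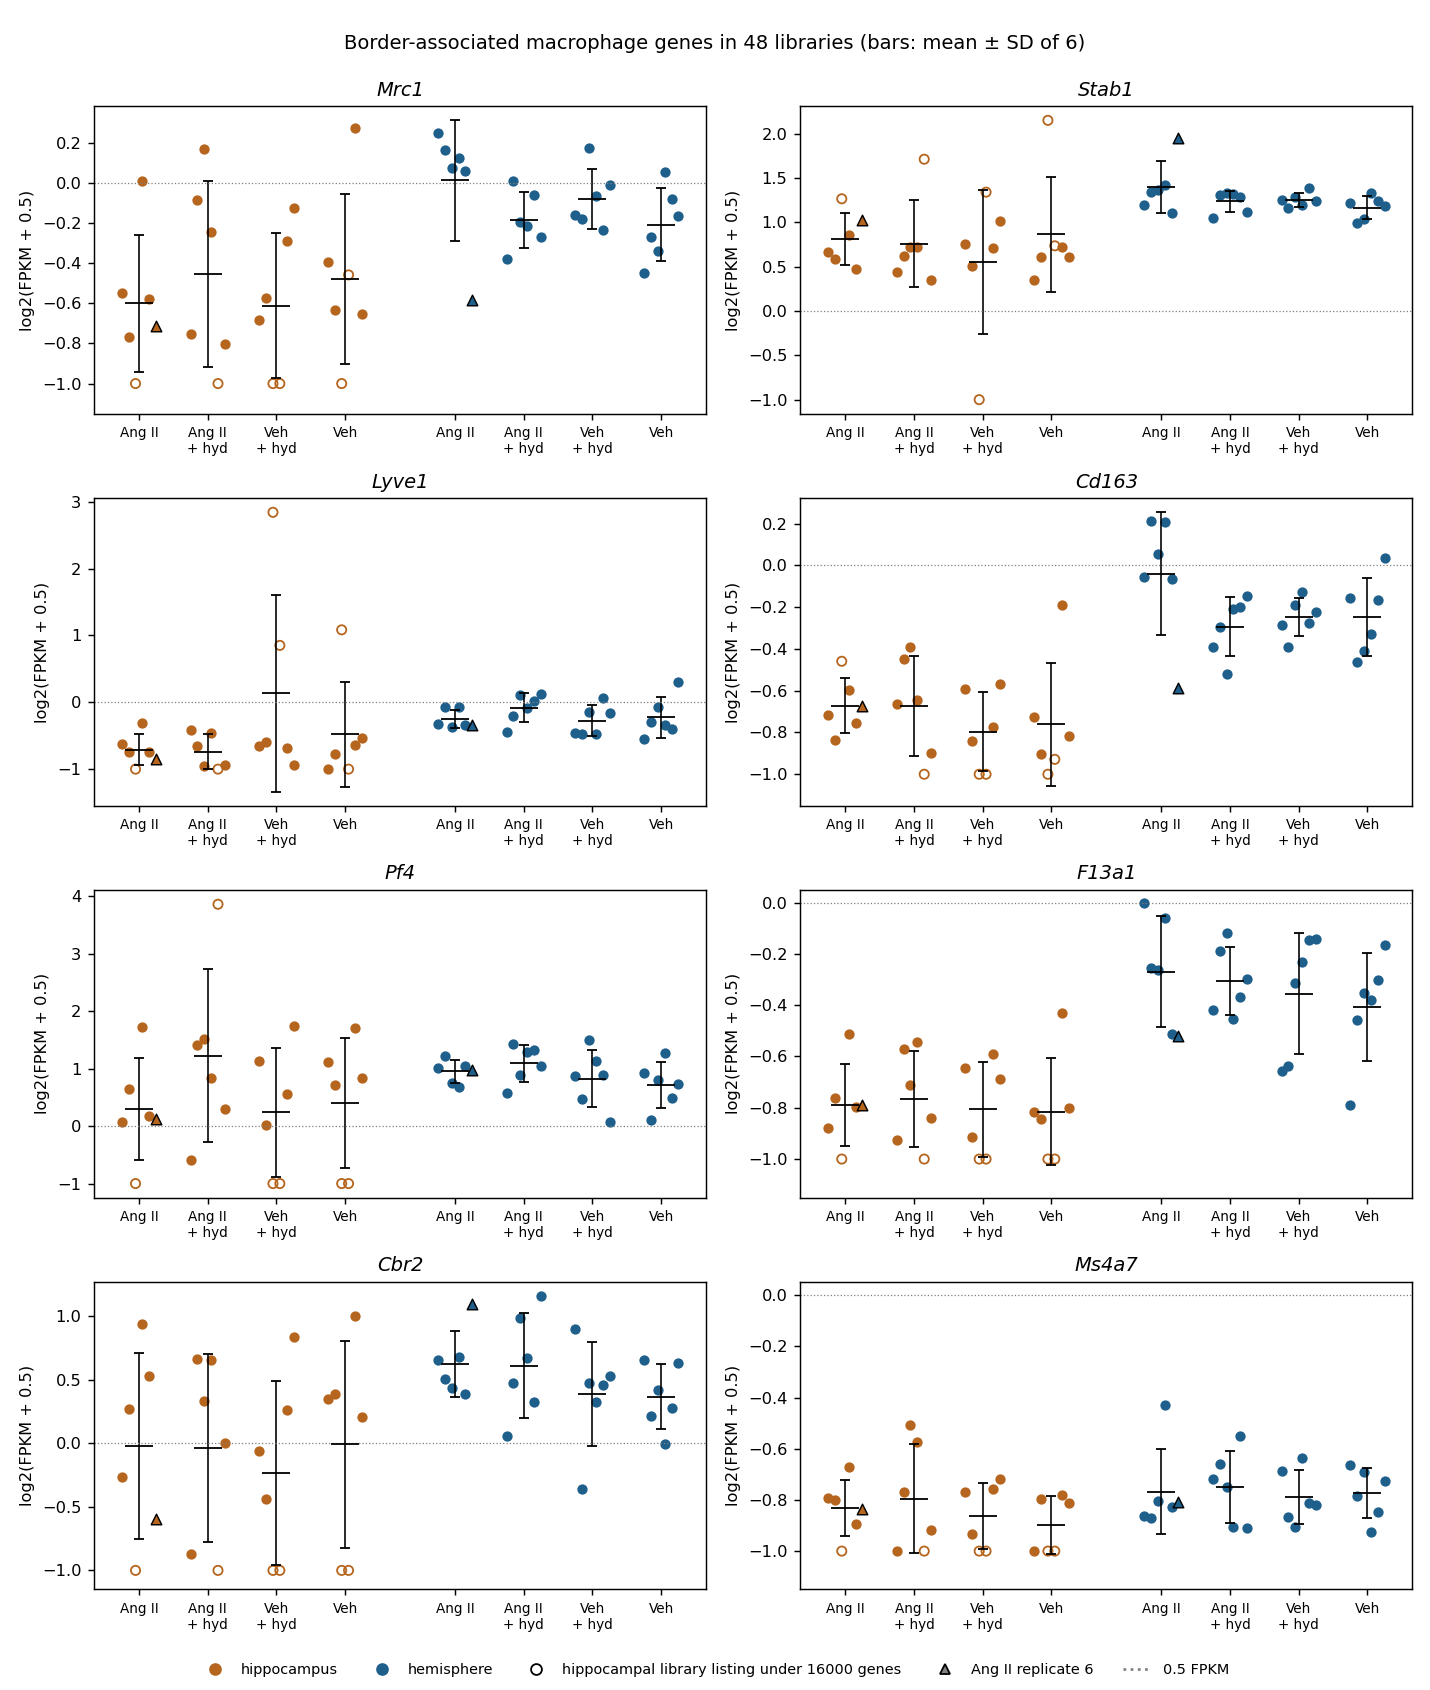
Level of each of the 8 genes in every library, as log2(FPKM + 0.5), by region and treatment; bars are the mean ± SD of 6 libraries, and the dotted line is 0.5 FPKM. F13a1 and Ms4a7 lie below the line in all 48 libraries, and the open circles, the 6 hippocampal libraries with few genes, hold many values at 0 and the highest of Lyve1, Pf4 and Stab1. Triangles mark Ang II replicate 6 of each region.

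In the order of the 8 group means, neighbours rarely stood apart. Of 56 neighbouring pairs (7 for each gene), 3 differed by more than the larger of the 2 SDs, one each for Lyve1, Cd163 and F13a1, all at the step between a hippocampal and a hemisphere group. Without the 6 libraries with few genes there were 4, the added one being Stab1. No 2 neighbouring treatments within a region were separated in this way for any of the 8 genes.

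In the hemisphere under Ang II, Mrc1, Cd163 and Stab1 lay above the vehicle mean in 5 of 6 libraries and Cbr2 in 6 of 6. Pf4 and F13a1 did so in 4 of 6, Lyve1 in 2 of 6 and Ms4a7 in 1 of 6. How many of all genes lie above the vehicle mean as often was not counted, and no member passed the test over all genes. Mrc1 was 0.167, 0.572 and 0.691 FPKM (lowest, median, highest) in the Ang II hemisphere, against 0.233, 0.362 and 0.538 FPKM in the vehicle hemisphere. The 5 Ang II libraries other than replicate 6 ranged from 0.542 to 0.691 FPKM, the lowest of them only narrowly above the highest vehicle library, 0.538 FPKM. Replicate 6 lay below the lowest vehicle library, so the groups separate only if it is left out. The share of all genes that separate in this way was not counted. Cd163 was 0.165, 0.501 and 0.658 FPKM in the Ang II hemisphere, against 0.226, 0.344 and 0.525 FPKM in the vehicle hemisphere. Here too replicate 6 was the lowest of all 12 libraries, and 3 of the other 5 Ang II libraries lay above the highest vehicle library. Stab1 showed the opposite arrangement, with replicate 6 the highest. It was 1.66, 2.05 and 3.36 FPKM in the Ang II hemisphere, against 1.48, 1.80 and 2.02 FPKM in the vehicle hemisphere. Cbr2 was 0.810, 0.996 and 1.64 FPKM in the Ang II hemisphere, against 0.498, 0.775 and 1.08 FPKM in the vehicle hemisphere. The groups overlapped for Stab1 and Cbr2, and the highest Ang II value of both was replicate 6.

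Tests used limma on log2(FPKM + 0.5) for genes that reached 0.5 FPKM in 6 or more libraries, a scale that understates changes of low genes, and were called at a Benjamini-Hochberg adjusted p under 0.05 over all genes. In the hemisphere 4 members passed this filter, the other 4 did not, and 0 of 4 were called under Ang II, where 0.0717% of all genes tested were called (0.0179% higher and 0.0537% lower). The log2 difference, Ang II minus vehicle, was 0.23 ± 0.10 for Stab1 (SE; limma adjusted p = 0.52, unadjusted p = 0.033), the only member with an unadjusted p under 0.05. It was 0.26 for Cbr2, 0.23 for Pf4 and 0.22 for Mrc1, with limma adjusted p of 0.63, 0.67 and 0.57. The members below the filter were read from a limma fit of genes with at least 0.1 FPKM, in which Cd163 differed by 0.21, F13a1 by 0.14, Ms4a7 by 0.01 and Lyve1 by -0.02, with limma adjusted p of at least 0.61. The median of all genes tested was near 0 in this comparison.

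The values without Ang II replicate 6 differed by more than 1.5 times for several members. For Mrc1 the difference became 0.34 ± 0.09 (SE; limma unadjusted p = 0.0015, adjusted p = 0.34) and for Cd163 0.32 ± 0.09 (limma unadjusted p = 0.0025, adjusted p = 0.37), both from the fit at 0.1 FPKM. For Stab1 it became 0.12 and for Cbr2 0.17 on the log2 scale. No member was called with or without that library.

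Lists of other cells were read beside the members in the same libraries, and they differed in direction. The sum over 12 fibroblast genes of the meninges and vessel walls was 54.7 to 84.95 FPKM in the Ang II hemisphere, against 42.3 to 54.2 FPKM in the vehicle hemisphere. The sum over 7 MHC class II genes, which present antigen, was 21.4 to 55.0 FPKM in the Ang II hemisphere, against 16.04 to 20.7 FPKM in the vehicle hemisphere. Neither sum overlapped between the groups, the fibroblast sum only narrowly so (54.7 against 54.2 FPKM). How often sums of other genes separate in this way was not counted. The sum over 9 smooth muscle and pericyte genes was 66.2 to 109.7 FPKM in the Ang II hemisphere, against 61.2 to 82.8 FPKM in the vehicle hemisphere, and overlapped. The sum over 11 choroid plexus genes overlapped too, with medians of 581 FPKM in the Ang II hemisphere and 695 FPKM in the vehicle hemisphere. Of the fibroblast genes 10 of 11 tested were above 0 in the Ang II difference (median log2 difference 0.14), and of the MHC class II genes 6 of 6 (median 0.57, and 0.37 without replicate 6), but 0 genes of either list were called. Of 10 choroid plexus genes 0 were above 0 (median -0.25), and 0 were called. None of the 12 fibroblast or 7 MHC class II genes was at 0 in any hemisphere library, and the part of these cells in the Mrc1 and Cd163 values was not tested.

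With hydralazine added to Ang II, Mrc1 and Cd163 in the hemisphere lay near their vehicle levels. Mrc1 was 0.269, 0.367 and 0.508 FPKM in Ang II plus hydralazine, against a median of 0.572 FPKM in Ang II and 0.362 FPKM in vehicle. Cd163 was 0.196, 0.340 and 0.404 FPKM in Ang II plus hydralazine, against a median of 0.501 FPKM in Ang II and 0.344 FPKM in vehicle. All 6 libraries of both drugs lay below the 5 higher Ang II libraries for both genes. They all lay above Ang II replicate 6 (0.167 FPKM of Mrc1 and 0.165 FPKM of Cd163), so the groups separate only if it is left out. The share of all genes that separate in this way was not counted. In vehicle plus hydralazine Mrc1 was 0.350, 0.427 and 0.631 FPKM, and Cd163 was 0.263, 0.341 and 0.416 FPKM. The highest Mrc1 of vehicle plus hydralazine thus lay within the range of those 5 Ang II libraries. The log2 difference, both drugs minus Ang II, was -0.20 for Mrc1 (limma adjusted p = 0.85) and -0.25 ± 0.11 for Cd163 (SE; limma unadjusted p = 0.035, adjusted p = 0.88). Members called numbered 0 of 4, and 0% of all genes were called in this comparison. Without Ang II replicate 6 the difference was -0.32 for Mrc1 and -0.36 for Cd163 (limma unadjusted p = 0.0027 and 0.00077), with an adjusted p of 0.9998 for both. This comparison shares the Ang II libraries with the one against vehicle, so the 2 sets of values are not independent. The test of the difference itself, the interaction of the drugs, gave -0.33 ± 0.18 for Mrc1 and -0.25 ± 0.16 for Cd163 (SE; limma adjusted p = 0.9998 for Mrc1 and 0.9995 for Cd163).

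**Figure D2:**
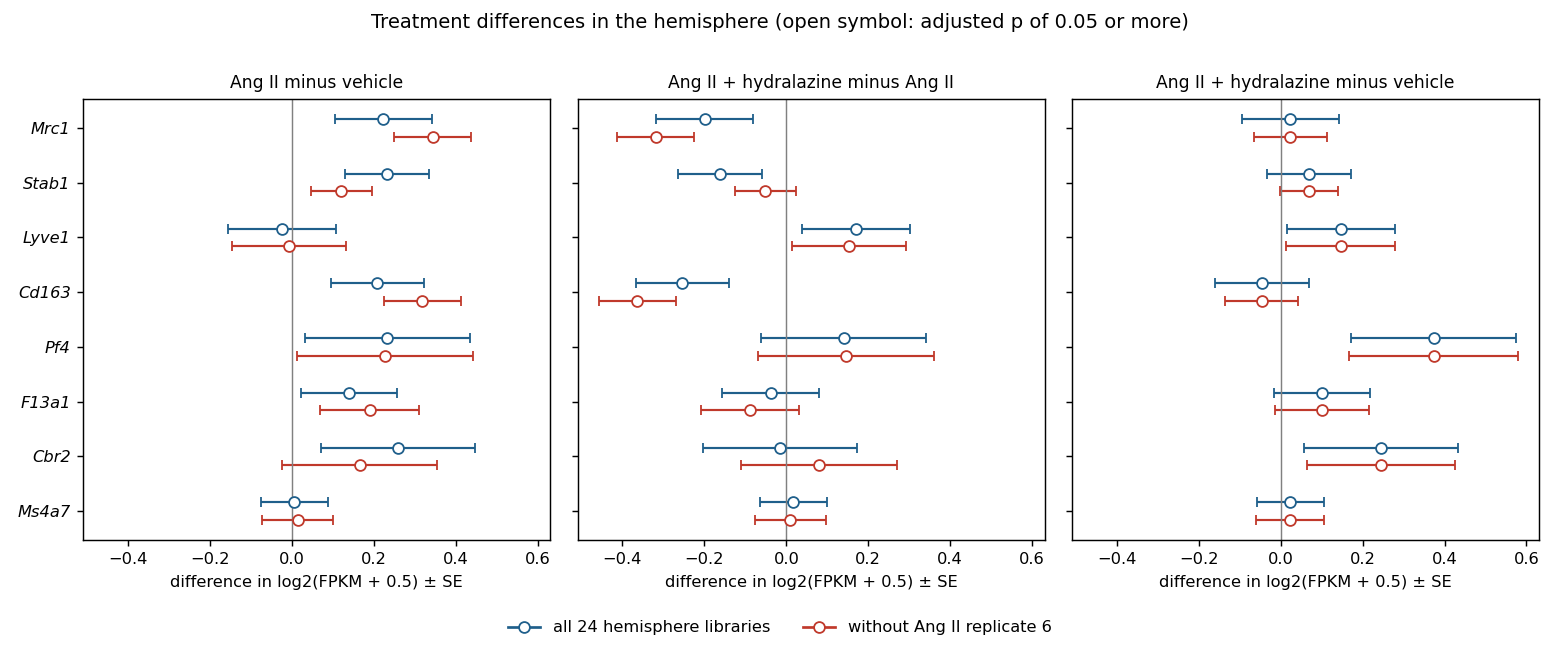
Differences in log2(FPKM + 0.5) ± SE for each gene in the hemisphere in 3 comparisons, from limma fits of genes with at least 0.1 FPKM, with all 24 libraries and without Ang II replicate 6. Mrc1 and Cd163 lie right of 0 for Ang II minus vehicle and left of 0 once hydralazine is added to Ang II, and no symbol is filled, since no adjusted p was under 0.05.

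Whether Mrc1 and Cd163 differ from the other members in this was not tested. Stab1 was 1.57, 1.95 and 2.02 FPKM in Ang II plus hydralazine, against a median of 2.05 FPKM in Ang II and 1.80 FPKM in vehicle. Its log2 difference, both drugs minus Ang II, was -0.16 (limma adjusted p = 0.85), and that of F13a1 was -0.04 (limma adjusted p = 0.96). The chemokine Pf4 was 0.996, 1.75 and 2.18 FPKM in Ang II plus hydralazine, 1.11, 1.499 and 1.83 FPKM in Ang II, 0.553, 1.35 and 2.31 FPKM in vehicle plus hydralazine, and 0.570, 1.202 and 1.92 FPKM in vehicle. Cbr2 had medians of 0.990 FPKM in Ang II plus hydralazine, 0.996 FPKM in Ang II, 0.880 FPKM in vehicle plus hydralazine and 0.775 FPKM in vehicle. Lyve1 had medians of 0.478 FPKM in Ang II plus hydralazine, 0.296 FPKM in Ang II, 0.310 FPKM in vehicle plus hydralazine and 0.303 FPKM in vehicle. The 4 groups overlapped for each of these genes. For F13a1 the group means ran from 0.260 FPKM in vehicle to 0.338 FPKM in Ang II, and for Ms4a7 from 0.0805 FPKM in vehicle plus hydralazine to 0.0969 FPKM in Ang II plus hydralazine, within SDs of up to 0.126 and 0.0748 FPKM. Over both fits the log2 differences of the 8 genes ranged from -0.05 to 0.37 for both drugs minus vehicle and from -0.05 to 0.13 for hydralazine alone minus vehicle. For both drugs minus vehicle plus hydralazine they ranged from -0.11 to 0.27. Members called numbered 0 in each, and 0% of all genes were called in each.

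In the hippocampus, 3 members passed the 0.5 FPKM filter (Stab1, Pf4 and Cbr2), 7 passed at 0.1 FPKM, and Ms4a7 passed neither. Members called under Ang II numbered 0 of 3 and 0 of 7, where 0% of all genes were called. Without the 6 libraries with few genes, Stab1 averaged 1.17 ± 0.259 FPKM in Ang II (SD, n = 5) and 0.994 ± 0.158 FPKM in vehicle (SD, n = 4). Pf4 averaged 1.13 ± 0.967 FPKM in Ang II and 1.72 ± 0.734 FPKM in vehicle, and Mrc1 0.211 ± 0.170 FPKM in Ang II and 0.313 ± 0.272 FPKM in vehicle. For Pf4 and Mrc1 in Ang II the SD was nearly as large as the mean. Without those libraries the log2 differences, Ang II minus vehicle, ranged from -0.55 for Pf4 to 0.15 for Stab1 over 7 members, with limma adjusted p of at least 0.85. The difference between regions in the Ang II effect was tested directly and called 0 of 5 members, where 0% of all genes were called. For Mrc1 it was -0.35 ± 0.26 on the log2 scale (SE; limma adjusted p of 1).

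The hippocampal spread was shared by most of the genes. Vehicle replicate 5 held 0.712 FPKM of Mrc1, 0.376 of Cd163, 2.77 of Pf4, 0.242 of F13a1 and 1.503 of Cbr2. In the other 3 vehicle libraries, those with few genes aside, Mrc1 was at most 0.260 FPKM and Cd163 at most 0.105 FPKM. Ang II replicate 4 likewise had 0.507 FPKM of Mrc1, 2.82 of Pf4 and 1.41 of Cbr2, where the highest of the other Ang II libraries were 0.185 FPKM of Mrc1, 1.07 of Pf4 and 0.940 of Cbr2. Vehicle plus hydralazine replicate 6 and Ang II plus hydralazine replicates 2, 3 and 4 had the highest Mrc1, Cd163 and Cbr2 of their groups, and vehicle plus hydralazine replicate 6 the highest Pf4. The high libraries came from all 4 treatments.

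After the group means were removed, 27 of 28 pairs of the 8 genes correlated positively over the 18 hippocampal libraries, with a median Pearson r of 0.59 (median Spearman rho 0.63). Correlations here describe libraries that share a dissection, a depth and a total to which FPKM are scaled, and carry no p. Pf4 and Cbr2 were the closest pair (r = 0.84, rho = 0.84), followed by Mrc1 and Cd163 (r = 0.81, rho = 0.77). Lyve1 stood aside: its 7 pairs ranged from -0.09 to 0.27, while the 21 pairs without it ranged from 0.33 to 0.84. When the 2 libraries farthest from the median of the first gene of each pair were left out, these 21 ranged from 0.41 to 0.82 (n = 16). Lyve1 had at most 17 reads in any of these 18 libraries and was at 0 in 1. Ms4a7 likewise had at most 17 reads and was at 0 in 2, while its 6 pairs without Lyve1 ranged from 0.46 to 0.71. In the hemisphere the same 28 pairs had a median r of 0.09 (rho 0.08), and 3 exceeded 0.5: Lyve1 with F13a1 (0.59), Mrc1 with Cd163 (0.59) and Mrc1 with F13a1 (0.52). Without Ang II replicate 6 the median was 0.19, Mrc1 with Cd163 fell to 0.18, and Lyve1 with F13a1 alone exceeded 0.5. Whether the 2 regions differ in these correlations was not tested.

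**Figure D3:**
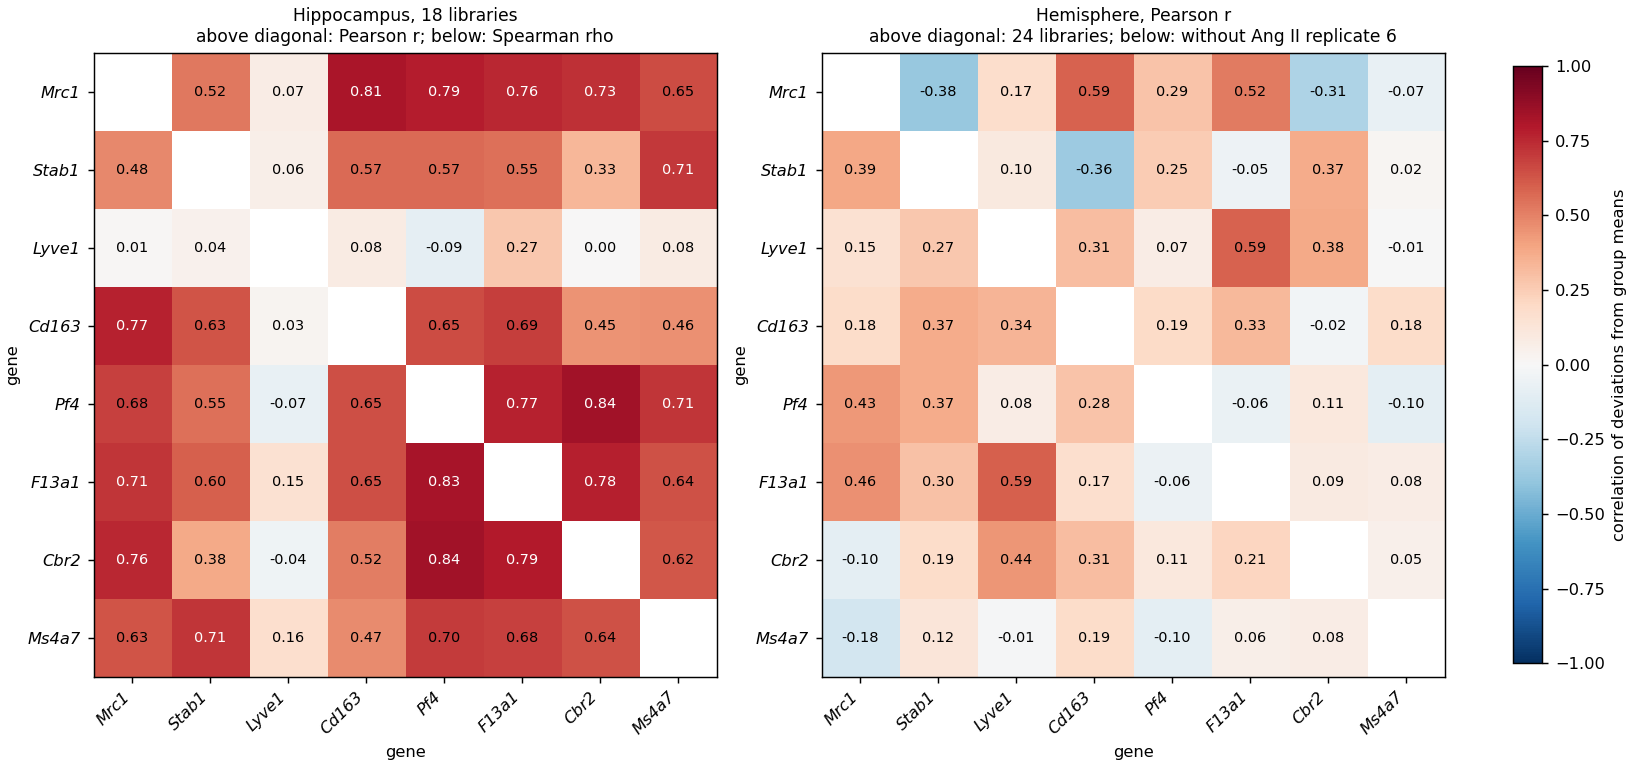
Correlations between the 8 genes, as deviations of log2(FPKM + 0.5) from group means, in the 18 hippocampal libraries (left; Pearson r above the diagonal, Spearman rho below) and in the hemisphere (right; 24 libraries above the diagonal, without Ang II replicate 6 below). In the hippocampus the pairs without Lyve1 range from 0.33 to 0.84 in r, and in the hemisphere 3 of 28 pairs exceed 0.5.

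Sums over several lists of other genes varied with the 8 genes in the hippocampus. Each sum is weighted towards the highest genes of its list, so a correlation of sums need not hold for each gene. Among the 8 genes the highest were Stab1, Pf4 and Cbr2. In the other lists the highest hippocampal medians (n = 18) were 25.9 FPKM for Gas6 (other border macrophage genes) and 16.3 FPKM for Mgp (fibroblasts). For smooth muscle and pericytes it was 41.2 FPKM, for Vtn. The summed FPKM of the 8 genes correlated with that of 9 smooth muscle and pericyte genes at r = 0.88 (rho = 0.90, n = 18) and with that of 12 fibroblast genes at r = 0.84 (rho = 0.82, n = 18). Without the 2 libraries farthest out on these genes r was 0.89 and 0.85 (n = 16). The sum over 21 other genes of the border macrophage programme gave r = 0.70 (rho = 0.63), MHC class II r = 0.68 (rho = 0.62) and endothelium r = 0.58 (rho = 0.56). Without the 2 libraries farthest out on each, these r were 0.53, 0.58 and 0.34 (n = 16). In vehicle replicate 5 the 8 genes summed to 6.97 FPKM, the smooth muscle and pericyte genes to 91.5 FPKM and the fibroblast genes to 41.8 FPKM. In the other 3 vehicle libraries they summed to 3.38 to 3.65 FPKM, 58.2 to 67.6 FPKM and 16.6 to 26.6 FPKM. Ang II replicate 4 had the highest sums of its group on all 3 lists, and a choroid plexus sum of 2076 FPKM, where the other Ang II libraries had 22.1 to 192 FPKM. The microglial sum (14 genes) was weakly related to the 8 genes (r = 0.14, rho = 0.15), as were the platelet sum (r = 0.29, rho = 0.20) and the reads in genes (r = -0.03, rho = -0.02). The sum over 6 hippocampal marker genes gave r = -0.56 (rho = -0.44). Choroid plexus gave r = 0.53 (rho = 0.42), and monocytes, neutrophils and lymphocytes r = 0.50 (rho = 0.46). Without the 2 libraries farthest out on each, the r of these 3 sums were -0.39, 0.33 and 0.23 (n = 16). In the hemisphere the fibroblast sum gave r = 0.76 (rho = 0.66, n = 24), the sum over monocyte, neutrophil and lymphocyte genes r = 0.69 (rho = 0.41), the smooth muscle and pericyte sum r = 0.65 (rho = 0.64), the other border macrophage genes r = 0.54 (rho = 0.48) and the microglial sum r = 0.36 (rho = 0.38). MHC class II in the hemisphere gave r = 0.47 (rho = 0.58). Which part of the spread in the 8 genes goes with the amount of vessel or meningeal tissue in a sample was not tested.

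**Figure D4:**
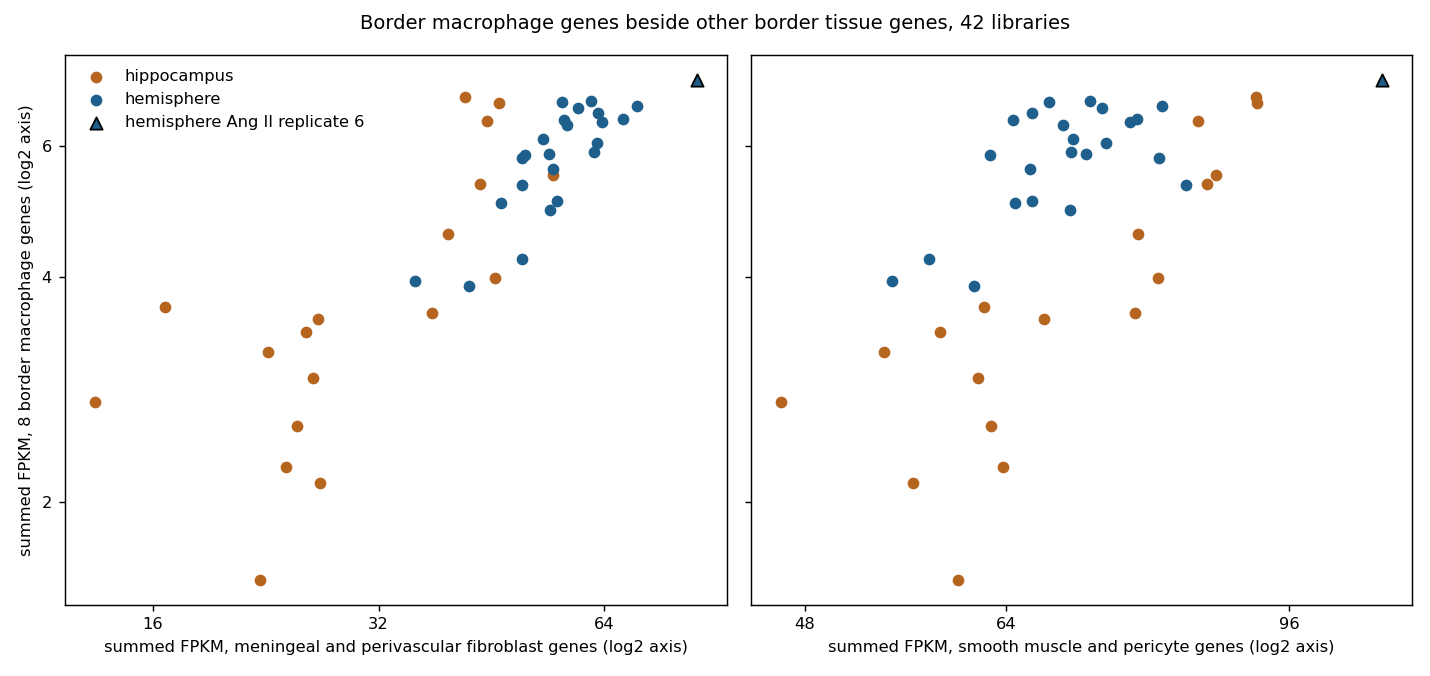
Summed FPKM of the 8 genes against the summed FPKM of 12 fibroblast genes (left) and 9 smooth muscle and pericyte genes (right), 1 point per library, for 18 hippocampal and 24 hemisphere libraries, on log2 axes. Within the hippocampus the sum of the 8 genes is higher where the other 2 sums are higher (r of 0.84 and 0.88 after group means were removed), and hemisphere Ang II replicate 6 (triangle) has the highest fibroblast sum, 84.95 FPKM.

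Between regions, the receptor Cd163 and the factor XIII chain F13a1 were called lower in the hippocampus than in the hemisphere in every treatment, with and without the 6 libraries with few genes. Stab1 and Lyve1 were called lower in every treatment once those libraries were left out, while Pf4, Cbr2 and Ms4a7 were called in none. In Ang II mice Cd163 was 0.0606, 0.118 and 0.227 FPKM in the hippocampus, against 0.165, 0.501 and 0.658 FPKM in the hemisphere, and the groups overlapped only because hippocampal replicate 3, which has few genes, lay above hemisphere replicate 6. F13a1 was 0, 0.0776 and 0.201 FPKM in the Ang II hippocampus, against 0.197, 0.335 and 0.498 FPKM in the Ang II hemisphere, so that the highest hippocampal library just overlapped the lowest of the hemisphere. Stab1 in vehicle mice was 0.773, 1.09 and 3.94 FPKM in the hippocampus, against 1.48, 1.80 and 2.02 FPKM in the hemisphere. Its hippocampal maximum was one of the libraries with few genes, and the other vehicle libraries of the hippocampus all lay below the hemisphere ones.

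Over all 48 libraries 5 members passed the 0.5 FPKM filter, Mrc1 with 8 and Lyve1 with 5 of its passing libraries from the hemisphere, so a count over those that passed supports nothing by itself. In Ang II mice 1 of 5 was called lower in the hippocampus, where 24.6% of all genes were called lower: Mrc1, by -0.62 ± 0.19 (SE; limma adjusted p = 0.0074). In vehicle plus hydralazine 2 of 5 were called lower (38.4% of all genes, and 50.7% in either direction), Stab1 by -0.70 and Mrc1 by -0.53 (limma adjusted p = 0.020 and 0.016). Without hippocampal replicate 3 of that group, which has few genes, Stab1 differed by -0.39 (limma adjusted p = 0.13). In Ang II plus hydralazine 0 of 5 (28.8% of all genes lower) and in vehicle 0 of 5 (29.5% lower and 12.7% higher) were called. At 0.1 FPKM all 8 were tested, and Cd163 and F13a1 were called lower in each of the 4 treatments. In Ang II mice 3 of 8 were called lower (22.3% of all genes), in Ang II plus hydralazine 2 of 8 (26.5%), in vehicle plus hydralazine 4 of 8 (34.4%) and in vehicle 2 of 8 (27.1%). Cd163 differed by -0.63 ± 0.12 in Ang II, -0.38 ± 0.12 in Ang II plus hydralazine, -0.55 ± 0.12 in vehicle plus hydralazine and -0.51 ± 0.12 in vehicle (SE). F13a1 differed by -0.52 in Ang II, -0.46 in Ang II plus hydralazine, -0.45 in vehicle plus hydralazine and -0.41 in vehicle. Being called lower in the hippocampus was common among all genes, so these counts show nothing particular to the 8 genes. The Cd163 call in Ang II plus hydralazine was lost without hippocampal replicate 5, which has few genes (-0.32, limma adjusted p = 0.051).

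Without the 6 libraries with few genes, and at 0.1 FPKM, Stab1, Lyve1, Cd163 and F13a1 were called lower in the hippocampus in all 4 treatments, and Mrc1 in Ang II as well. That made 5 of 8 in Ang II (32.1% of all genes lower) and 4 of 8 in Ang II plus hydralazine (36.4%), vehicle plus hydralazine (34.6%) and vehicle (34%). Stab1 differed by -0.67 in Ang II, -0.66 in Ang II plus hydralazine, -0.50 in vehicle plus hydralazine and -0.59 in vehicle. With all 48 libraries Lyve1 had differed by 0.41 ± 0.35 in vehicle plus hydralazine (SE; limma adjusted p = 0.34), where 2 libraries with few genes held 6.68 and 1.305 FPKM of it. Without them Lyve1 differed by -0.40, -0.61, -0.44 and -0.51 in the same order of treatments, with limma adjusted p of at most 0.011. Pf4 differed by -0.40 in Ang II, -0.40 in Ang II plus hydralazine, 0.03 in vehicle plus hydralazine and 0.38 in vehicle, and Cbr2 by -0.45, -0.46, -0.24 and 0.12. Their SEs were 0.26 to 0.34, and neither gene was called in any treatment. Ms4a7 differed by -0.07 to -0.003, and at 2 to 23 reads per hemisphere library a moderate difference was not detectable.

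**Figure D5:**
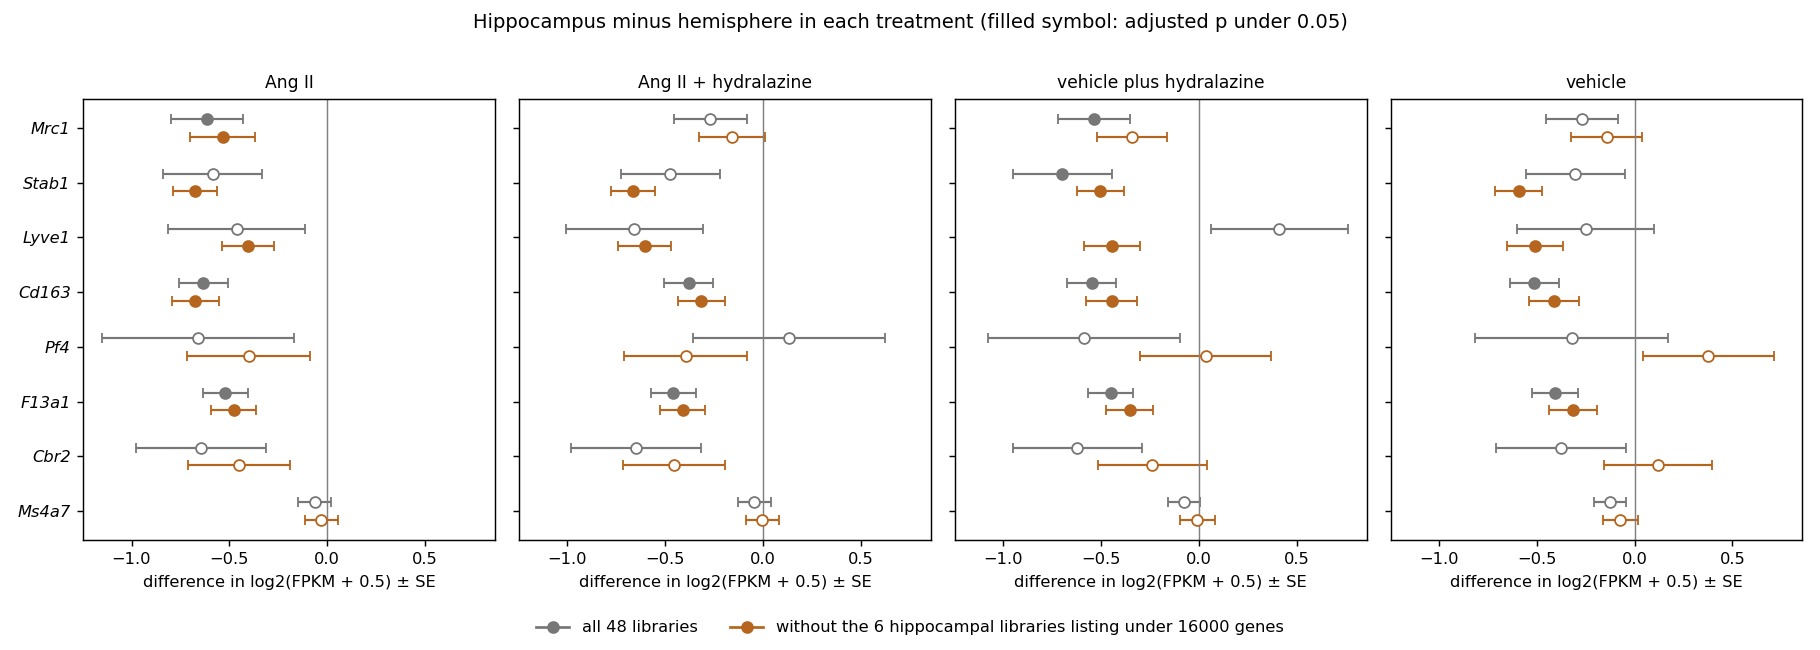
Differences in log2(FPKM + 0.5) ± SE, hippocampus minus hemisphere, for each gene in each treatment, from limma fits of genes with at least 0.1 FPKM, with all 48 libraries (grey) and without the 6 hippocampal libraries with few genes (brown). Filled symbols have an adjusted p under 0.05: Cd163 and F13a1 are filled and left of 0 in all 4 treatments in both fits.

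The list of 21 other genes of the border macrophage programme was read beside the members in vehicle mice without the 6 libraries. Of 9 tested genes, 6 were called lower in the hippocampus and 1 higher, with a median log2 difference of -0.51, against -0.14 over all genes. In that fit 40% of all genes were called lower and 23.8% higher. The tested genes reach up to Gas6, with a hemisphere median of 50.9 FPKM. Genes too low to be tested include Folr2 and Siglec1, with hemisphere maxima of 0.376 and 0.156 FPKM. The counts thus cover only part of the list. Mgl2 had a median of 0.136 FPKM (maximum 0.548) in the 18 hippocampal libraries and 0.417 FPKM (maximum 0.783) in the hemisphere. Its passing the 0.5 FPKM filter thus depended on its highest libraries, and its call supports nothing by itself. Those called lower were Gas6, a bridging ligand for uptake of dying cells, Maf, a macrophage transcription factor, the scavenger receptor Colec12, Tgfbi, the endocytic adaptor Dab2 and the lectin Mgl2, and Cd38 was called higher. With all 48 libraries only Gas6, Colec12, Dab2 and Mgl2 of these were called, all lower. Without the 6 libraries, of 14 microglial genes 12 were called higher and 2 lower (median 0.48; with all 48 libraries 5 higher and 1 lower), of 11 fibroblast genes 7 lower and 0 higher (median -1.06), and of 10 choroid plexus genes 8 lower and 0 higher (median -1.61). The parts of these cells in the values of the 8 genes were not tested. Some fibroblast and choroid plexus genes passed the 0.5 FPKM filter through the hemisphere, where they are high. Col3a1 had medians of 0.227 FPKM in the 18 hippocampal libraries and 0.810 FPKM in the hemisphere, and Kcnj13 0.0446 and 1.51 FPKM. The counts of both lists thus support nothing by themselves.

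The genes most alike to each member over the 24 hemisphere libraries, among 13595 protein-coding genes and after removal of group means, rested partly on Ang II replicate 6. Stab1 was most like Cd74, the invariant chain of MHC class II (r = 0.90, rho = 0.86), then Tns2 (0.88) and Rcn3 (0.88), and without that library these r were 0.75, 0.73 and 0.73 (n = 23). Mrc1 was most like Nfatc2ip (r = 0.90, rho = 0.81), Slitrk1 (0.86) and Gulp1 (0.85), and without it r was 0.78, 0.68 and 0.69. Cbr2 was most like Anxa5 (r = 0.85, rho = 0.76), Fto (0.84) and Serpinf1 (0.81), with r of 0.84, 0.82 and 0.79 without it. Pf4 was most like Dusp23 (r = 0.70, rho = 0.69), Sgk2 (0.66) and 1700001C02Rik (0.65), and r was 0.75, 0.66 and 0.66 without it. No gene was named for more than 1 member.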

How the data were processed

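Total RNA of hemispheres and hippocampi was isolated with a column kit and sequenced by a company, as the labels' protocols say. As deposited, the authors' values are FPKM for 54532 genes in 48 libraries, in 1 table. The submitters' processing notes name GRCm38, mm10 and DESeq 1.10.1. No aligner, read counter or strand option is given in the sources used here. Every value column matched 1 sample (unmatched: 0). Groups come from the labels.

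Multiplying FPKM by gene length recovered whole reads for at least 99.97% of the values above 0 in every library (tolerance 0.1 read). These recovered reads describe depth only. Because the unit is FPKM, no count model was used. Values were analysed as log2(FPKM + 0.5) with limma 3.58.1 in R 4.3.3 (trend and robust prior, two-sided). A gene entered a fit if 6 or more of its libraries reached 0.5 FPKM, and a Benjamini-Hochberg adjusted p under 0.05 made a call. Fits within a region used its 24 libraries and 4 groups, and fits between regions all 48. A fit at 0.1 FPKM, which holds members below that filter, and the correlations in the hippocampus were added after values were seen. All 120 replicate pairs differed by more than sampling noise (chi-square per gene of 3.08 or more). Most same-numbered libraries did not deviate together, so no pairing was used in the main fits. Within a region single correlations reached 0.45 in the hemisphere and 0.24 in the hippocampus.

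The 8 genes, the marker lists and the tests were chosen with earlier results of these data known. The rule for named genes took all 8 members, the 3 genes most correlated with each member tested in the hemisphere, and called genes of other lists. Alternatives were other pseudocounts, filters and scalings, library weights, a replicate block, left-out libraries and fits of only the groups compared. The fit was tested on simulated data. Python 3.11.15, pandas 2.3.3, numpy 2.4.6, scipy 1.17.1 and matplotlib 3.10.9 prepared tables and figures. Promoters are from RefSeq (GRCm38.p6).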

Additional observations from a re-analysis of the deposited data

Results flagged for a closer look

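Of 64 sets of 6 libraries (8 genes in 8 groups), 13 held a library far from the other 5. The rule flags about 1 in 20 sets of independent, normally distributed values. FPKM from few reads are not such values and the sets share libraries, so the 13 cannot be weighed against that rate. In hemisphere Ang II replicate 6, Mrc1 was 0.167 FPKM with the others at 0.542 to 0.691 FPKM, Stab1 was 3.36 FPKM with the others at 1.66 to 2.18 FPKM, and Cbr2 was 1.64 FPKM with the others at 0.810 to 1.096 FPKM. In hemisphere Ang II replicate 4, Ms4a7 was 0.242 FPKM from 23 reads with the others at 0.0474 to 0.0722 FPKM.

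In hippocampal vehicle replicate 5, Mrc1 was 0.712 FPKM, Cd163 0.376 FPKM and F13a1 0.242 FPKM, above the other 5 libraries, whose highest were 0.260, 0.105 and 0.0736 FPKM. In hippocampal Ang II replicate 4, Mrc1 was 0.507 FPKM with the others at most 0.185 FPKM.

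The other 5 values came from hippocampal libraries with few genes. Pf4 was 13.99 FPKM from 146 reads in Ang II plus hydralazine replicate 5, where Stab1 was 2.77 FPKM. Lyve1 was 6.68 FPKM from 27 reads in vehicle plus hydralazine replicate 3, the library with 1.21 M reads, where no other member was above 0. In vehicle replicate 3, Lyve1 was 1.62 FPKM and Stab1 3.94 FPKM.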

How the results depend on the processing

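No member was called in any treatment comparison within a region, or in the difference between regions of the Ang II effect, under any alternative run, and counts of members called with each library left out ran from 0 to 0 there. Depth limits Ms4a7, Pf4 and Cbr2, and likewise members called lower in the hippocampus. In the 18 hippocampal libraries with more genes, Lyve1 had 0 to 17 reads, F13a1 3 to 27 and Cd163 3 to 34. Hippocampal values rest on 4 or 5 libraries a group without the 6 with few genes. In the hemisphere Ang II comparison, 12 genes in all were called, against 0 to 38 under the alternatives. Most same-numbered libraries did not deviate together: within regions 8 of 36 correlations in the hippocampus and 3 of 36 in the hemisphere exceeded 0.1, and between regions 0 of 24. A block for the replicate number left members called within a region at 0, and all genes called in the hemisphere Ang II comparison at 5. Why values moved was not tested, beyond fewer genes or libraries entering a fit.

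Members called lower in the hippocampus than in the hemisphere moved with the settings. In Ang II mice (1 member) they numbered 2 with a pseudocount of 1, 3 with library weights, 0 at a filter of 1 FPKM, 3 with no filter, 2 without the 6 libraries, alone or with Ang II replicate 6, 2 with only the 2 groups compared and 3 at 0.1 FPKM. In Ang II plus hydralazine (0 members) they numbered 1 with a pseudocount of 0.1, 2 with library weights, 2 with no filter, 1 without the 6 libraries, alone or with Ang II replicate 6, and 2 at 0.1 FPKM. In vehicle plus hydralazine (2 members) they numbered 3 with library weights, 1 at a filter of 1 FPKM, 4 with no filter, 1 without the 6 libraries, alone or with Ang II replicate 6, 0 with only the 2 groups compared and 4 at 0.1 FPKM. In vehicle (0 members) they numbered 3 with library weights, 2 with no filter, 1 without the 6 libraries, alone or with Ang II replicate 6, and 2 at 0.1 FPKM. With each library left out they ran from 1 to 2 in Ang II, 0 to 1 in Ang II plus hydralazine, 1 to 3 in vehicle plus hydralazine and 0 to 1 in vehicle.

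Differences that changed sign were small or rested on the libraries with few genes. Under Ang II in the hemisphere Ms4a7 was -0.0030 with a pseudocount of 0.1. Between regions, Pf4 in Ang II plus hydralazine (0.13) was -0.017 with a pseudocount of 0.1, -0.44 with library weights and -0.40 without the 6 libraries, alone or with Ang II replicate 6. Lyve1 in vehicle plus hydralazine (0.41) was -0.43 with library weights. Pf4 in vehicle plus hydralazine was 0.035 without the 6 libraries, alone or with Ang II replicate 6. In vehicle Pf4 was 0.23 with library weights and 0.38 without the 6 libraries, and Cbr2 was 0.12 without them, both alone or with Ang II replicate 6. With each library left out, Lyve1 ran from -0.09 to 0.081 (0.0076 without vehicle replicate 3) under Ang II in the hemisphere, and Ms4a7 from -0.061 to 0.03 (-0.024 without vehicle replicate 4 and -0.0087 without vehicle replicate 5). Between regions Ms4a7 in Ang II ran from -0.10 to 0.0026, Pf4 in Ang II plus hydralazine from -0.40 to 0.49 and Lyve1 in vehicle plus hydralazine from -0.13 to 0.63. In vehicle Pf4 ran from -0.58 to -0.042 and Cbr2 from -0.58 to -0.18, and in vehicle plus hydralazine Pf4 ran from -0.88 to -0.34. Of the other alternatives for differences between regions, 302 of 333 kept both direction and call.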
